A study of Homo sapiens with 6 samples.

Results

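The neural adhesion genes described here are 10 contactins, receptor phosphatases and their partners, measured in HEK293 cells, an established human line of embryonic kidney origin. They are the contactins CNTN1 and CNTN3, the contactin-associated protein CNTNAP1, the adhesion molecules NRCAM and L1CAM, the receptor tyrosine phosphatases PTPRZ1, PTPRG and PTPRO, and the secreted ligands PTN and MDK. All were found by symbol among the 60675 gene rows of the count table. CNTN1, PTPRZ1 and PTPRO were chosen by their log2 fold changes and levels in the groups in these same libraries, so their differences are given as a description with no p-value, and whether a test called them supports nothing. The other 7 were named for their family or binding partners, though with earlier results of these data known.

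Of 6 libraries, 3 came from cells whose genotype label is MOCS2 knockdown, made by RNA interference, and 3 from control cells whose genotype label is wild type. Both kinds of cells grew in high-glucose medium with serum and the selection agent Geneticin, and total RNA was sequenced after removal of ribosomal RNA. The interfering sequence, and whether each line was 1 clone or a pool, were not found in the labels. MOCS2, which encodes the subunits of molybdopterin synthase, checks the labels. It had 69.8, 58.9 and 59.9 CPM (read counts scaled to library size) in the libraries labelled knockdown, against 57.8, 66.6 and 65.6 CPM in controls, a log2 fold change of -0.01 with a 95% interval of -0.33 to 0.31. The RNA of the targeted gene was thus not measurably lower, and every difference below is between libraries by their label only.

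Contactins are immunoglobulin-type proteins held on the cell surface by a lipid anchor, and they bind partners on the same cell and on its neighbours. At the edge of the node of Ranvier, contactin-1 pairs with CNTNAP1 on the axon. Contactin-1 is also a ligand of the carbonic anhydrase-like domain of PTPRZ1, a phosphatase of glia that carries chondroitin sulfate chains and binds the growth factors pleiotrophin (PTN) and midkine (MDK). NRCAM and L1CAM belong to the L1 family, whose cytoplasmic tails bind ankyrins.

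Reads assigned to genes ranged from 17958632 to 19362299 in the libraries labelled knockdown and from 19895547 to 22171106 in controls. All 7 genes listed as marks of HEK293 were detected, VIM, KRT8 and NEFL among them, and summed to 2450, 1819 and 1762 CPM in the libraries labelled knockdown and 1534, 1266 and 1742 CPM in controls. These genes did not move together. VIM, the highest, averaged 1277 CPM in the libraries labelled knockdown and 805 CPM in controls, wholly above. NEFL (125.1 against 160.4 CPM) and LHX1 (6.54 against 11.2 CPM) lay wholly below the controls, and the groups overlapped in the rest. Markers of other cells were also summed, and the sums for glia and podocytes are given further below. Neuronal genes had 45.7 to 52.4 CPM in the libraries labelled knockdown and 37.6 to 47.6 CPM in controls, most of it SYT1 and GAD1. SYT1 averaged 19.2 CPM in the libraries labelled knockdown and 19.3 CPM in controls, and GAD1 19.9 and 16.5 CPM. The groups overlapped in all 7 tested neuronal genes. Fibroblast genes had 12.4 to 24.7 CPM in the libraries labelled knockdown and 21.8 to 33.1 CPM in controls. Of the 5 that were tested, LUM alone lay wholly below the controls. LUM averaged 1.90 CPM in the libraries labelled knockdown and 11.9 CPM in controls. Log2 fold changes were positive for 2 of these 5 genes and negative for 3. Endothelial genes had 1.64 to 3.88 CPM in the libraries labelled knockdown and 3.37 to 4.53 CPM in controls. Of the 3 that were tested, KDR alone lay wholly below the controls, and the other 2 had positive log2 fold changes. KDR averaged 0.918 CPM in the libraries labelled knockdown and 2.35 CPM in controls. Leukocyte genes had 2.00 to 4.62 CPM in the libraries labelled knockdown and 1.21 to 2.52 CPM in controls. The library labelled knockdown 2 had 37.5% of its uniquely aligned reads outside genes, against 21.5% to 25.0% in the other 5. The libraries labelled knockdown also spread more widely, with a median SD of log2 CPM over genes of 0.31, against 0.16 among controls. The labels do not say that replicates were separate cultures, so p-values measure the spread between these libraries, which may be technical.

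With edgeR's quasi-likelihood test over 18267 genes, 0 genes (0%) passed an adjusted p of 0.05, so 0 of the 9 members tested passed. CNTN3, with at most 3 reads in any library, was too low to test. An unadjusted p under 0.05 was reached by 20.5% of all tested genes, and, among the 6 tested members not picked for their differences, by PTN, which was higher (9.93% of all genes), and NRCAM, which was lower (10.6%). The groups did not overlap in 26.8% of all tested genes, and did not overlap in 5 of the 9 tested members, of which CNTN1, PTPRZ1 and PTPRO owe this to how they were picked. DESeq2, which called 6.94% of genes, 3.39% higher and 3.55% lower, counted 2 members higher and 2 lower, and PTN was the only 1 of these 4 not picked on the same contrast. edgeR with no filter on low counts, which called 3.64% of genes, 1.6% higher and 2.03% lower, counted the same 4 members. limma voom called 0 members. With the replicate number as a block, edgeR called 0.104% of genes, 0.0328% higher and 0.0712% lower, and 1 member, a picked 1, lower. Without control 3 it called 0.0212% of genes, all lower, and 1 member, again a picked 1. Nothing is read from the counts of CNTN1, PTPRZ1 and PTPRO, which were chosen on this contrast.

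**Figure D1:**
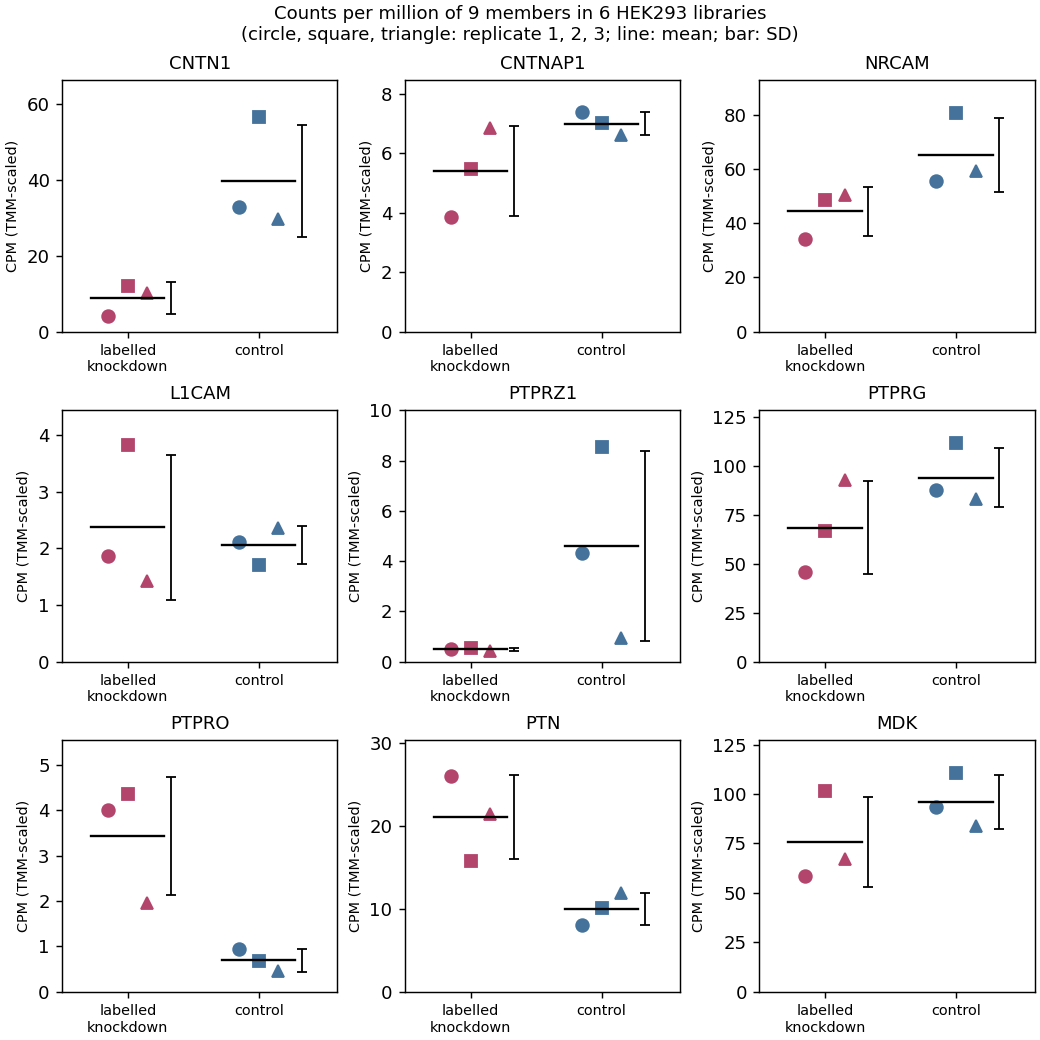
Level of the 9 tested members in CPM (scaled by TMM factors, vertical axes from 0) in each library labelled knockdown and each control library. Points are libraries, lines are means and bars are SDs (n = 3); CNTN1, PTPRZ1 and NRCAM lie lower and PTPRO and PTN higher in all 3 libraries labelled knockdown, while the groups overlap in the other 4.

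The bases upstream of the annotated starts are shown for CNTN1 and PTPRZ1, whose values were lower in the libraries labelled knockdown, and for PTPRO and PTN, whose values were higher. RefSeq's promoter table (GRCh38.p14) matched 9 of the 10 members by symbol, all but MDK. Each window is the longest run, within the 250 bases before the RefSeq start, that lies in no GENCODE exon, written 5′ to 3′ on the gene's own strand at chr12:40827934-40828058 (plus), chr7:121872911-121873088 (plus), chr12:15322258-15322396 (plus) and chr7:137343866-137343983 (minus). Capitals mark the GC box GGGCGG and the E-box CANNTG, searched on both strands.
CNTN1: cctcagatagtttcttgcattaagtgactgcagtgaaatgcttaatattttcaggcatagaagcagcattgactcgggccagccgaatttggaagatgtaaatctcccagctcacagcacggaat
PTPRZ1: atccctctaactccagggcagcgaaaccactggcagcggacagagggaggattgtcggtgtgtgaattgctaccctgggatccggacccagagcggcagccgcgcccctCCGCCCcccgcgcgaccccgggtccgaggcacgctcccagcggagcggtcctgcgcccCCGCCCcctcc
PTPRO: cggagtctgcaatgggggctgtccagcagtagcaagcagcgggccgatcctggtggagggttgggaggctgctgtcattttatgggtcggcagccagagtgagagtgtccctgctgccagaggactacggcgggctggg
PTN: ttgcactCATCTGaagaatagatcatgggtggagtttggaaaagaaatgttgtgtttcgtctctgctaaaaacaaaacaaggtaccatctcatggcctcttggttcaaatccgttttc
The PTPRZ1 window held 2 GC boxes, at 71.9% G and C with 18 CpG sites, and 30.9% of all promoters held a GC box in the same stretch. The PTN window held 1 E-box, at 39.8% G and C, and 37.8% of all promoters held an E-box in the same stretch. Neither motif was in the CNTN1 window, where 21.5% of all promoters held a GC box and 39.5% an E-box, nor in the PTPRO window, where 23.8% and 42.8% did. The pair with lower values thus had unlike windows, at 44.0% G and C with 3 CpG sites for CNTN1 and 71.9% for PTPRZ1. The CNTN1 window shown, before its first start in that table, lies inside the annotated span of the gene. The window before its second start, which is not shown, held 2 E-boxes and no GC box, at 36.0% G and C. In that stretch, 61.5% of all promoters held an E-box and 42.3% a GC box. Counts per gene do not say which start was used, and CNTN1 and PTPRO each have 2 starts in RefSeq's table, the second of PTPRO leaving no window outside exons.

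CNTN1 (ENSG00000018236) lies on chromosome 12 from 40692442 to 41072418 on the plus strand (GRCh38). The window shown, before its first start, held neither motif, while that before its second start held 2 E-boxes. It had 72, 228 and 192 reads in the libraries labelled knockdown, against 733, 1260 and 587 reads in controls, which is 4.07, 12.1 and 10.1 CPM in the libraries labelled knockdown against 32.9, 56.6 and 29.6 CPM in controls. Library 1 was lowest among those labelled knockdown and library 2 highest among controls, and the groups did not overlap. The means were 8.77 ± 4.19 CPM in the libraries labelled knockdown and 39.7 ± 14.7 CPM in controls (SD, n = 3 each), a log2 difference of -2.17 ± 0.37 (SE). With 1 library left out it ran from -2.48 to -1.84. In bulk RNA, fewer cells with a transcript and less of it per cell cannot be told apart.

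CNTN3 (ENSG00000113805, chromosome 3, 74262568 to 74521140, minus strand), a contactin of neurons, had 1, 3 and 0 reads in the libraries labelled knockdown and 3, 0 and 0 reads in controls. Both groups were at the limit of 3 reads, and no difference was measurable at this depth.

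CNTNAP1 (ENSG00000108797, chromosome 17, 42682613 to 42699814, plus strand) had 68, 103 and 130 reads in the libraries labelled knockdown, against 164, 156 and 131 reads in controls. In CPM, which corrects for depth, library 3 labelled knockdown stood at 6.86 and lay within the control range of 6.59 to 7.37, while libraries 1 and 2 stood lower at 3.85 and 5.47. The means were 5.39 ± 1.51 CPM in the libraries labelled knockdown and 6.99 ± 0.388 CPM in controls, a log2 difference of -0.37 ± 0.26 (SE) that did not pass (edgeR adjusted p = 0.433). Its exons share 381 bases with CCR10 on the opposite strand, and whether counting used strand is not stated in the labels. The counting set 2.87% to 3.70% of uniquely aligned reads aside as ambiguous. Reads over the shared bases may thus be missing here or assigned to the wrong gene. The gene next to it, EZH1, a histone methyltransferase that lies 0.461 kb away, averaged 36.8 ± 4.76 CPM in the libraries labelled knockdown and 55.2 ± 3.72 CPM in controls, with no overlap (edgeR adjusted p = 0.102).

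NRCAM (ENSG00000091129, chromosome 7, 108147623 to 108456717, minus strand), an axonal adhesion molecule, had 34.0, 48.5 and 50.4 CPM in the libraries labelled knockdown, against 55.5, 80.5 and 59.1 CPM in controls. All 3 libraries labelled knockdown lay below all 3 controls, by a small gap between 50.4 and 55.5 CPM. The means were 44.3 ± 8.94 CPM in the libraries labelled knockdown and 65.1 ± 13.5 CPM in controls and the log2 fold change was -0.55 ± 0.20 (SE, edgeR adjusted p = 0.161), which did not pass. Over all tested genes, 14.3% had the libraries labelled knockdown wholly below the controls.

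L1CAM (ENSG00000198910, chromosome X, 153861514 to 153886174, minus strand), the founding member of its family, was low in every library. It had 1.87, 3.83 and 1.42 CPM in the libraries labelled knockdown and 2.11, 1.71 and 2.37 CPM in controls. The groups overlapped on both sides and library 2 labelled knockdown was the highest. The log2 fold change was 0.20 with a 95% interval of -0.65 to 1.06 (edgeR adjusted p = 0.796), and it turned to -0.33 without knockdown 2. Its exons share 439 bases with U52112.1 on the same strand and 359 bases with LCA10 on the other, so its level is uncertain.

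PTPRZ1 (ENSG00000106278) lies on chromosome 7 from 121873089 to 122062036 on the plus strand. It had 9, 10 and 8 reads in the libraries labelled knockdown, against 96, 190 and 19 reads in controls. The libraries labelled knockdown lay close together, between 0.422 and 0.531 CPM, whereas the controls ran from 0.957 CPM in control 3 to 8.53 CPM in control 2, an 8.92-fold span. The means were 0.487 ± 0.0578 CPM in the libraries labelled knockdown and 4.60 ± 3.796 CPM in controls, a log2 difference of -3.23 ± 0.68 (SE). It was -2.43 without control 2 and -3.72 without control 3.

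Beside PTPRZ1, whose usual cells are glia, the glial marker lists were summed. The 6 astrocyte genes came to 127, 144 and 69.1 CPM in the libraries labelled knockdown and 57.7, 45.6 and 65.7 CPM in controls, of which SLC1A3, a glutamate transporter, made up most (104.1 ± 35.5 CPM in the libraries labelled knockdown and 46.7 ± 11.3 CPM in controls). ALDH1L1, a folate enzyme, went the other way without overlap, at 1.24 ± 0.362 CPM in the libraries labelled knockdown and 1.81 ± 0.188 CPM in controls, and AQP4, a water channel, averaged 1.02 ± 0.827 CPM in the libraries labelled knockdown and 1.99 ± 0.0767 CPM in controls with overlap. GFAP and S100B, the classical astrocyte genes, stood at no more than 0.585 and 0.113 CPM in any library, and SOX10 of the oligodendrocyte lineage at no more than 0.101 CPM. The 9 genes of the oligodendrocyte lineage summed to between 36.4 and 46.9 CPM in the libraries labelled knockdown and between 40.6 and 46.2 CPM in controls, a sum over members that parted in both directions. The transcription factor OLIG2 averaged 10.8 ± 5.25 CPM in the libraries labelled knockdown and 4.53 ± 1.78 CPM in controls, all libraries labelled knockdown above all controls. PDGFRA, a growth factor receptor, averaged 0.891 ± 0.528 CPM in the libraries labelled knockdown and 3.51 ± 1.72 CPM in controls, and MBP, a myelin protein, 27.5 ± 2.26 CPM in the libraries labelled knockdown and 32.4 ± 2.64 CPM in controls, both wholly below. The part of these markers in the PTPRZ1 values was not tested.

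PTPRG (ENSG00000144724, chromosome 3, 61561569 to 62297613, plus strand), which shares the carbonic anhydrase-like domain of PTPRZ1 and binds other contactins, had 45.6, 66.5 and 92.8 CPM in the libraries labelled knockdown, against 87.5, 111 and 82.9 CPM in controls. Library 3 labelled knockdown lay above control 1 and control 3, so the groups overlapped, while libraries 1 and 2 lay below every control. The means were 68.3 ± 23.6 CPM in the libraries labelled knockdown and 93.9 ± 15.2 CPM in controls, with a log2 difference of -0.46 ± 0.24 (SE; edgeR adjusted p = 0.295). Without knockdown 3 it fell, with a log2 fold change of -0.75 (edgeR adjusted p = 0.0308), in a fit that called 14.8% of all genes. Its adjusted p ran up to 0.667 over the other alternatives, by edgeR, DESeq2 or limma. Its exons share 1207 bases with PTPRG-AS1 on the opposite strand.

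PTPRO (ENSG00000151490, chromosome 12, 15322397 to 15597399, plus strand), a phosphatase of podocytes and neurons, had 71, 82 and 37 reads in the libraries labelled knockdown, against 21, 15 and 9 reads in controls. With 4.01, 4.36 and 1.95 CPM in the libraries labelled knockdown against 0.944, 0.674 and 0.453 CPM in controls, every library labelled knockdown was above every control, with library 3 the lowest of its group. The means were 3.44 ± 1.301 CPM in the libraries labelled knockdown and 0.690 ± 0.246 CPM in controls, a log2 difference of 2.30 ± 0.41 (SE), and the values with 1 library left out ran from 2.07 to 2.59. The 5 podocyte markers summed to between 40.3 and 46.1 CPM in the libraries labelled knockdown and between 45.1 and 49.2 CPM in controls. The part of these markers in the PTPRO values was not tested.

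PTN (ENSG00000105894, chromosome 7, 137227341 to 137343865, minus strand), a heparin-binding growth factor, had 460, 298 and 407 reads in the libraries labelled knockdown, against 178, 224 and 237 reads in controls. In CPM these were 26.0, 15.8 and 21.5 in the libraries labelled knockdown against 8.0, 10.1 and 11.9 in controls, with every library labelled knockdown above every control. The means were 21.1 ± 5.10 CPM in the libraries labelled knockdown and 10.00 ± 1.97 CPM in controls, a log2 difference of 1.08 ± 0.23 (SE), which missed the threshold (edgeR adjusted p = 0.0828). DESeq2 called PTN higher (adjusted p = 0.00163), as did edgeR without knockdown 3 (adjusted p = 0.0183) and with no filter on low counts. Its adjusted p ran from 0.000528 to 0.406 over the 12 alternatives, by edgeR, DESeq2 or limma. Over all tested genes, 12.5% had the libraries labelled knockdown wholly above the controls.

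MDK (ENSG00000110492, chromosome 11, 46380756 to 46383837, plus strand), the only close relative of PTN in human, had overlapping groups. It had 58.7, 101 and 67.0 CPM in the libraries labelled knockdown, against 93.3, 111 and 84.1 CPM in controls, and library 2 was the highest of each group. The log2 fold change was -0.34 ± 0.21 (SE, edgeR adjusted p = 0.376). PTN reads came to 44.3%, 15.6% and 32.0% of MDK reads in the libraries labelled knockdown and to 8.58%, 9.08% and 14.2% in controls. These ratios did not overlap, but library 2 labelled knockdown and control 3 were close. The summed level of both ligands, 84.7, 117 and 88.5 CPM in the libraries labelled knockdown and 101, 121 and 96.0 CPM in controls, did overlap.

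**Figure D2:**
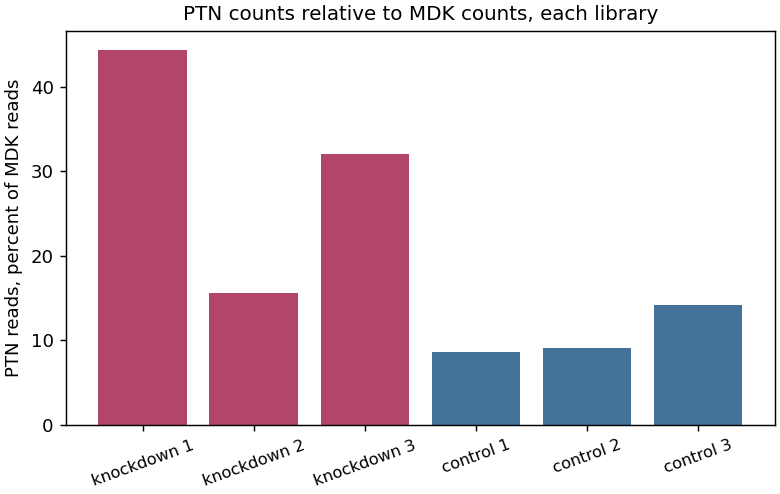
PTN reads as a percent of MDK reads (vertical axis, from 0) in each of the 6 libraries (bars). The libraries labelled knockdown range from 15.6% to 44.3% and the controls from 8.58% to 14.2%.

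**Figure D3:**
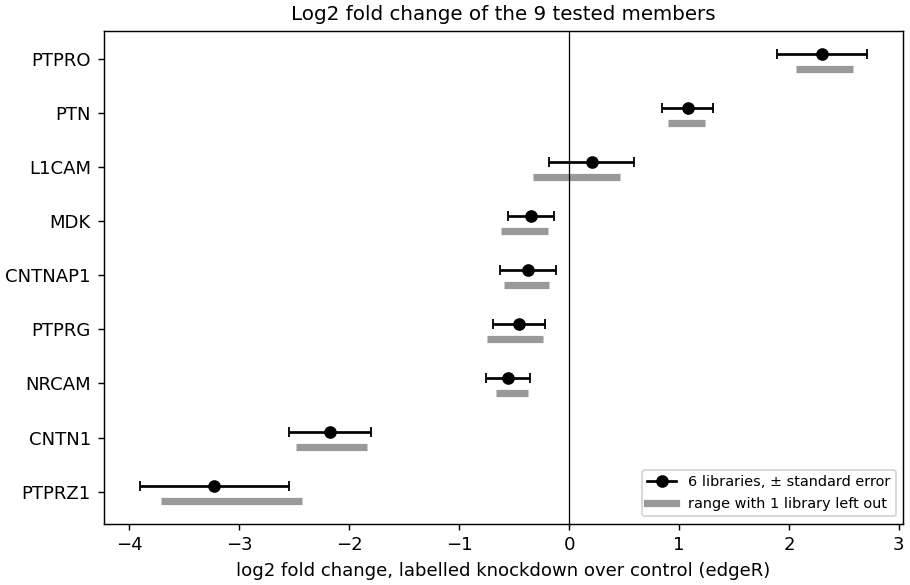
Log2 fold change of each tested member (horizontal axis, libraries labelled knockdown over controls, edgeR), with its standard error, and the range of values when 1 library is left out (grey bars). PTPRZ1 at -3.23 and CNTN1 at -2.17 lie at the low end and PTPRO at 2.30 at the high end; of the 9 grey bars, that of L1CAM includes 0.

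Levels were compared between genes per kilobase of exon. In the libraries labelled knockdown the order was MDK at 34.5 ± 10.3, PTN at 12.3 ± 2.97, NRCAM at 5.41 ± 1.09 and PTPRG at 4.67 ± 1.62 CPM per kb, followed by CNTN1 at 1.17 ± 0.559 and CNTNAP1 at 0.892 ± 0.250 CPM per kb. PTPRO at 0.458 ± 0.173, L1CAM at 0.326 ± 0.176 and PTPRZ1 at 0.0492 ± 0.00582 CPM per kb came last. In controls the order began with MDK at 43.7 ± 6.17, NRCAM at 7.94 ± 1.65, PTPRG at 6.42 ± 1.04, PTN at 5.84 ± 1.15 and CNTN1 at 5.30 ± 1.97 CPM per kb. These last 4 genes had overlapping ranges and cannot be ordered beyond their spread. CNTNAP1 at 1.16 ± 0.0642, PTPRZ1 at 0.464 ± 0.383, L1CAM at 0.284 ± 0.0458 and PTPRO at 0.0918 ± 0.0327 CPM per kb ended the control order, where the range of PTPRZ1 included that of L1CAM in full and overlapped that of PTPRO. Among the libraries labelled knockdown, the neighbours NRCAM and PTPRG, CNTN1 and CNTNAP1, and PTPRO and L1CAM overlapped.

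**Figure D4:**
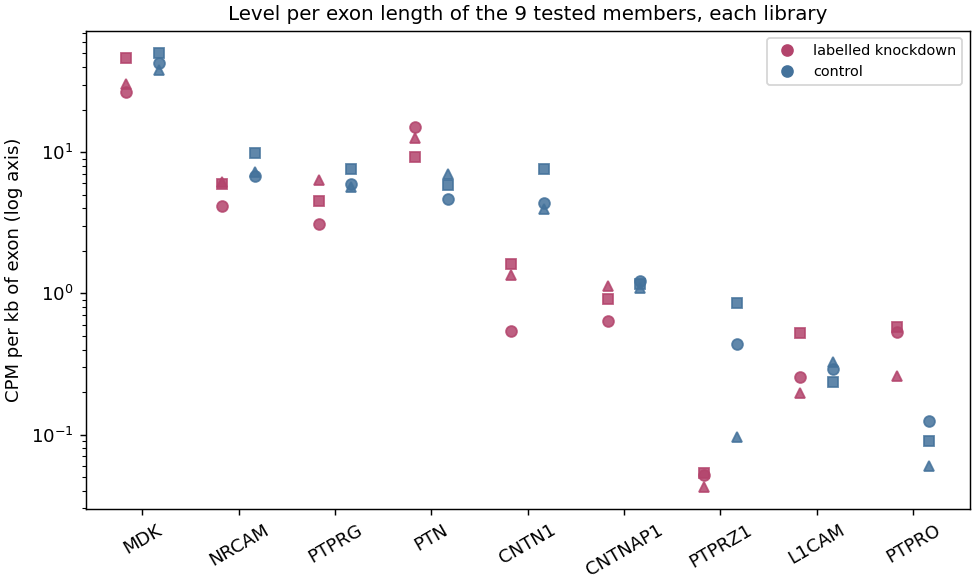
Level per kilobase of exon (log axis) of the 9 tested members, ordered by their control mean, in each library labelled knockdown and each control (circle, square and triangle are replicates 1, 2 and 3). MDK is the highest in every library, while CNTN1 averages 1.17 CPM per kb in the libraries labelled knockdown and 5.30 CPM per kb in controls.

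The members lie on 6 chromosomes, with NRCAM, PTPRZ1 and PTN on chromosome 7 and CNTN1 and PTPRO on chromosome 12. The median log2 fold change was 0.06 over 900 tested genes of chromosome 7 and -0.02 over 995 of chromosome 12. The groups overlapped in the nearest tested genes on both sides of CNTN1, PTPRO and PTN. GXYLT1, beyond CNTN1, averaged 101.1 ± 19.1 CPM in the libraries labelled knockdown and 103.6 ± 23.0 CPM in controls. On its other side MUC19 had 2.26, 29.1 and 0.528 CPM in the libraries labelled knockdown and 1.53, 3.10 and 3.02 CPM in controls, high in library 2 labelled knockdown alone. EPS8, 22.8 kb beyond PTPRO, averaged 53.4 ± 8.52 CPM in the libraries labelled knockdown and 61.4 ± 2.89 CPM in controls, and ARHGDIB on the other side at 1.51 ± 0.867 CPM in the libraries labelled knockdown and 0.764 ± 0.474 CPM in controls. DGKI, 37.2 kb from PTN, averaged 2.70 ± 1.98 CPM in the libraries labelled knockdown and 0.721 ± 0.533 CPM in controls. AASS, an enzyme of lysine breakdown 13.6 kb beyond PTPRZ1, averaged 39.0 ± 10.3 CPM in the libraries labelled knockdown and 69.7 ± 15.5 CPM in controls without overlap (edgeR adjusted p = 0.104), while FAM3C on the other side averaged 83.6 ± 9.50 CPM in the libraries labelled knockdown and 76.6 ± 5.43 CPM in controls.

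The genes whose log2 CPM followed the picked members most closely over the 6 libraries were sought among 12479 protein-coding genes. These correlations rest on 6 points that share the group difference, and they are a description. For CNTN1 they were MBTPS1, a protease that activates sterol regulators (r = 0.997), PCDH18, a protocadherin (r = 0.995), and FZD4, a Wnt receptor (r = 0.995). FZD4 had 9.73, 14.8 and 15.3 CPM in the libraries labelled knockdown and 24.4, 28.9 and 23.4 CPM in controls, so its libraries kept the low place of library 1 and the high place of control 2. For PTPRZ1 they were CNOT1, the scaffold of a deadenylase complex (r = 0.998), ATMIN (r = 0.993) and CMTM4 (r = 0.984), and for PTPRO they were ZNF223 (r = 0.995), FOXD4 (r = 0.992) and MVB12B (r = 0.991). CNOT1, like PTPRZ1, was nearly level among the libraries labelled knockdown and ranked control 2, control 1 and control 3 from high to low, over a far smaller span, with 450.2, 447.6 and 449.0 CPM in the libraries labelled knockdown and 559.9, 601.4 and 484.6 CPM in controls. FOXD4 has near-identical copies, so its counts are uncertain.

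All 3 genes named for PTPRZ1, and MBTPS1 for CNTN1, lie on chromosome 16, which holds 4.30% of the genes compared. Among the 100 genes most like each member, 13 for PTPRZ1, 12 for CNTN1 and 0 for PTPRO were on chromosome 16. The median log2 difference of chromosome 16 genes from the control mean was -0.25, -0.16 and -0.24 in the libraries labelled knockdown, against 0.05, -0.00233 and -0.05 in controls. Over all chromosomes it was 0.02, -0.11 and 0.01 in the libraries labelled knockdown and between -0.00944 and 0.01 in controls. The part of chromosome 16 in these likenesses was not tested, and the chromosome was singled out after the values were seen.

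The wider families were followed in 8 lists of 81 genes, which held 73 genes besides the members, and 55 of these could be tested. Of the 55, 0 passed edgeR's test, with an unadjusted p under 0.05 for 4 that were higher and 8 that were lower, where 9.93% of all tested genes were higher and 10.6% lower by that rule. The groups did not overlap in 10 of them, 1 above and 9 below the controls, a share of 18.2% against 26.8% of all tested genes. Without knockdown 3, where the filter kept more genes, 7 of the 73 were called higher and 3 lower. That fit called 6.46% of all its tested genes higher and 8.3% lower. ALK and PTPRT, among those called, were not among the 55.

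Of the other contactins, CNTN4, which has been reported to bind APP, was the only 1 that could be tested, and both tested contactins, CNTN1 and CNTN4, had negative log2 fold changes. CNTN4 had 7.80, 21.7 and 16.7 CPM in the libraries labelled knockdown and 23.9, 30.04 and 19.8 CPM in controls, and the groups overlapped because library 2 labelled knockdown lay above control 3 (log2 fold change -0.67, edgeR adjusted p = 0.260). Of the 6 contactin-associated proteins 4 were tested, 2 with positive and 2 with negative log2 fold changes and a median of -0.05, and the groups overlapped in all 4. CNTNAP2 averaged 28.02 ± 1.09 CPM in the libraries labelled knockdown and 27.3 ± 2.45 CPM in controls (log2 fold change 0.04, 95% interval -0.30 to 0.37). CNTNAP3 and CNTNAP3B, near-identical copies whose counts are uncertain, had log2 fold changes of -0.14 and 0.08. In the L1 family all 4 genes were tested, 3 positive and 1 negative. NFASC, the glial partner of contactin-1 beside the node and an L1 family member, averaged 2.83 ± 1.42 CPM in the libraries labelled knockdown and 2.00 ± 0.323 CPM in controls (edgeR adjusted p = 0.460).

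Of 20 receptor-type tyrosine phosphatases, 16 were tested and 0 passed, with 5 positive and 11 negative log2 fold changes and a median of -0.18, against 0.02 over all tested genes. PTPRN, a protein of secretory granules, had 3.45, 3.61 and 2.11 CPM in the libraries labelled knockdown and 1.17, 0.853 and 2.17 CPM in controls, where library 3 labelled knockdown fell just short of control 3 (edgeR adjusted p = 0.151). PTPRD, a synaptic organiser, averaged 27.2 ± 10.9 CPM in the libraries labelled knockdown and 39.7 ± 7.20 CPM in controls (edgeR adjusted p = 0.287), and PTPRB, of endothelium, 6.18 ± 0.535 CPM in the libraries labelled knockdown and 7.66 ± 1.09 CPM in controls (edgeR adjusted p = 0.454). Summed over the 20 genes the family came to 592.8, 729.3 and 733.0 CPM in the libraries labelled knockdown and 742.8, 795.1 and 765.0 CPM in controls. PTPRG alone made up 7.69%, 9.12% and 12.7% of that sum in the libraries labelled knockdown and 11.8%, 14.0% and 10.8% in controls.

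Of 16 receptors listed for pleiotrophin and midkine, PTPRZ1 among them, 15 were tested and 0 passed, 6 with positive and 9 with negative log2 fold changes. NCL, a nucleolar protein that also binds both ligands at the cell surface, had 2109, 1746 and 1704 CPM in the libraries labelled knockdown and 1319, 1202 and 1186 CPM in controls. The groups did not overlap, and the log2 fold change was 0.58 ± 0.17 (SE, edgeR adjusted p = 0.112, called by DESeq2). ITGA6, an integrin chain, averaged 110.8 ± 8.72 CPM in the libraries labelled knockdown and 147.4 ± 19.5 CPM in controls, also without overlap (edgeR adjusted p = 0.176). ITGAV, another integrin chain, averaged 267.2 ± 44.5 CPM in the libraries labelled knockdown and 219.9 ± 35.7 CPM in controls (edgeR adjusted p = 0.399). TNC, the matrix protein tenascin-C that binds PTPRZ1 and contactin-1, had 272.5, 248.6 and 66.3 CPM in the libraries labelled knockdown and 78.0, 61.8 and 111.3 CPM in controls. Libraries 1 and 2 labelled knockdown lay above every control and library 3 did not (edgeR adjusted p = 0.151). Of 6 matrix ligands 3 were tested, 2 positive and 1 negative. VCAN, the proteoglycan versican, averaged 425.8 ± 194 CPM in the libraries labelled knockdown and 476.2 ± 88.3 CPM in controls.

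All 11 ankyrin, spectrin and band 4.1 linkers had a negative log2 fold change, with a median of -0.37, where 48.2% of all tested genes were negative. Of the 11, 0 passed the test and 4 had the libraries labelled knockdown wholly below the controls, as did 14.3% of all tested genes. All 11 were negative under each of the 12 alternatives, and the median was -0.22 without knockdown 1. ANK3, the ankyrin of the axon initial segment, had 37.7, 47.5 and 55.5 CPM in the libraries labelled knockdown and 59.0, 81.7 and 72.2 CPM in controls (log2 fold change -0.60, edgeR adjusted p = 0.127). EPB41L3, which links CNTNAP proteins to actin, averaged 222.1 ± 12.9 CPM in the libraries labelled knockdown and 304.0 ± 18.4 CPM in controls (log2 fold change -0.45, edgeR adjusted p = 0.132), and ANK2 58.1 ± 7.69 CPM in the libraries labelled knockdown and 78.2 ± 14.2 CPM in controls (edgeR adjusted p = 0.200). Of 14 other immunoglobulin adhesion molecules, 9 were tested, 6 positive and 3 negative, and 0 passed. CADM1, a synaptic adhesion molecule, averaged 196.2 ± 24.6 CPM in the libraries labelled knockdown and 264.2 ± 27.4 CPM in controls (edgeR adjusted p = 0.169). LSAMP averaged 9.59 ± 6.89 CPM in the libraries labelled knockdown and 5.46 ± 2.02 CPM in controls and DSCAM 2.64 ± 1.98 CPM in the libraries labelled knockdown and 1.53 ± 0.538 CPM in controls, with library 2 labelled knockdown the highest for both.

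**Figure D5:**
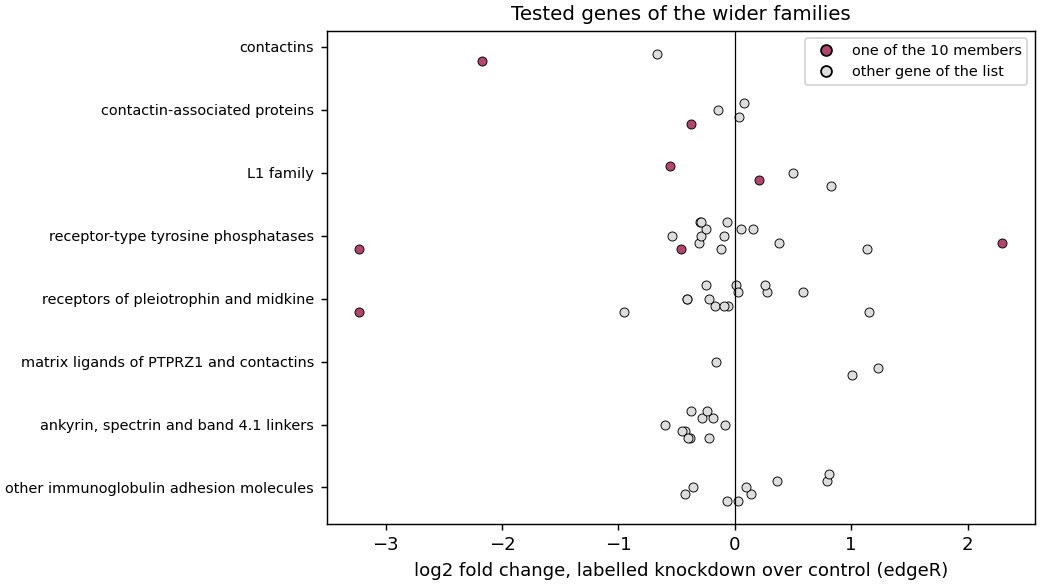
Log2 fold change (horizontal axis, libraries labelled knockdown over controls, edgeR) of every tested gene in the 8 lists, with the 10 members' tested genes coloured; vertical offsets within a list only separate the points. The 11 linkers all lie below 0, and the receptor phosphatases run from PTPRZ1 at -3.23 to PTPRO at 2.30.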

How the data were processed

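Total RNA was made into stranded libraries after ribosomal RNA removal, per the labels' protocols. The authors deposited raw read counts per Ensembl gene; bcl2fastq 2.18, TopHat2 2.0.13 and HTSeq with hg38 are named in the submitters' processing notes. Strand setting and annotation release are not given there. Of 60675 gene identifiers, 57055 matched GENCODE 29, which gave symbols, positions and exon lengths; 5 special rows were left out.

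Counts were tested with edgeR 4.0.16 (R 4.3.3; TMM factors, filterByExpr, quasi-likelihood F test, two-sided, Benjamini-Hochberg over 18267 genes, threshold 0.05). CPM are scaled to TMM-corrected library sizes, with a prior count of 2 on the log2 scale. The alternatives were DESeq2 1.42.0, limma 3.58.1 voom, DESeq2 size factors, no filter, at least 1 CPM in 3 libraries, a replicate block, and each library left out. Groups and replicate numbers came from sample titles. Replicates differed beyond counting noise (chi-square over degrees of freedom from 10.0 to 63.7). The scripts were tested on simulated data.

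The members and lists were chosen with earlier results of these data known. The text names every member, up to 3 further genes per list with the largest absolute log2 fold change at a mean of at least 2 CPM, and the 3 protein-coding genes most correlated with CNTN1, PTPRZ1 and PTPRO. Neighbouring genes, markers and ratios were added.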

Additional observations from a re-analysis of the deposited data

Results flagged for a closer look

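The library labelled knockdown 2 had 37.5% of its uniquely placed reads outside genes, against 21.5% and 22.3% in the other libraries labelled knockdown and 23.6% to 25.0% in controls. These reads enter no comparison. Among the libraries labelled knockdown, CNTN1, PTPRZ1, PTPRO, MDK and L1CAM were highest in that library and PTN was lowest, and the part of the library in those values was not tested.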

How the results depend on the processing

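Direction was kept in all but 1 of 107 values of the 9 tested members under 12 alternatives. The exception was L1CAM, which ranged from -0.33 (without knockdown 2) to 0.46 with 1 library left out. CNTN1, PTPRZ1 and PTPRO, among the 9, were picked for their differences in these libraries, so their kept direction supports nothing. PTPRZ1 was not tested at the filter of 1 CPM in 3 libraries. Counts of calls moved more than directions, and the cause was not tested. With no filter on low counts, edgeR called 694 genes higher and 880 lower (3.64% of genes), with 2 members higher, 2 lower, and 4 genes of the wider families higher and 2 lower. DESeq2 called 559 genes higher and 586 lower, with 2 members higher and 2 lower and 1 family gene, NCL, higher.

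Leaving out 1 library gave 0 to 1232 genes called higher and 0 to 1583 lower, 0 to 2 members higher and 0 to 3 lower, and 0 to 7 family genes higher and 0 to 3 lower. The upper values came without knockdown 3, where PTPRG was called lower and PTN higher beside the 3 picked members; without control 3, 4 genes were called, 1 of them a picked member. Genes whose groups did not overlap numbered 2826 to 4320 above and 3142 to 4690 below, where fewer libraries are compared. MOCS2 ran from -0.0941 to 0.0267, with positive values of 0.0242 without control 2, 0.00461 without control 3, 0.0267 without knockdown 2 and 0.0192 without knockdown 3.

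Same-numbered libraries had correlations of 0.114, -0.167 and -0.125 between their deviations from the group means. Not every library correlated best with its own number. Deviations within groups of 3 libraries offset one another, so these correlations cannot decide whether the numbers pair the libraries. With the replicate block, 6 genes were called higher and 13 lower (0.104%), with 1 member, a picked 1, lower. PTPRZ1 rests on 8 to 10 reads in each library labelled knockdown and PTPRO on 9 to 21 reads in each control, so counting error is large there.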
